A study of Homo sapiens with 10 samples.

Results

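The p53 target genes examined here were CDKN1A, BTG2, PLK3, MDM2, TP53I3, FDXR, SESN1, RRM2B, ZMAT3 and TP53INP1. They were taken from the deposited count table by gene symbol, which gave 10 of its 32738 rows. All 10 had enough counts to be tested, as did 12733 genes in all. The cells were HepG2, a human hepatoma line. For 17 h they were kept either in their usual medium alone (untreated, also described as mock treated) or in medium with 2 µg/ml tunicamycin, which blocks N-linked glycosylation and thereby loads the ER with misfolded proteins. Each condition had 5 libraries, 1 for each of 5 experiments run on separate days, and 3′ sequencing (QuantSeq) was used, so that transcripts are counted largely without regard to their length. Every library came from the same cell line, and a library is the RNA of a whole culture, in which fewer responding cells and less RNA per cell cannot be told apart.

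p53 is a transcription factor that is held at a low level in unstressed cells by the ubiquitin ligase MDM2 and accumulates after DNA damage and other stresses. It binds a response element of adjoining decamers and raises the transcription of genes that stop the cell cycle, repair DNA, alter metabolism or promote cell death. MDM2 is itself a target, which closes a feedback loop, and p21, the product of CDKN1A, stops cyclin-dependent kinases so that many genes of S phase and mitosis are repressed.

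Matches to the p53 response element were searched within 2500 bases on either side of the start of each gene's canonical transcript in GRCh38, because these short sequences are what the members are known to share as p53 targets. Of the 10 genes, 5 had a match, against 3.77% of the windows of the same length around 20033 protein-coding genes. The genes were listed as known p53 targets, so this share describes the list and is not a test. A match had 20 bases, the core CNNG in each of its decamers and at most 2 mismatches to the consensus, and since the consensus is palindromic a single search covers both strands. The sequences of 4 of them are given 5′ to 3′ on the gene's strand, with the 20 matched bases in capitals and 5 flanking bases on either side.
CDKN1A: gtcagGAACATGTCCCAACATGTTGagctc
BTG2: gggtcACGCATGTTCAGGCATGCATggaat
MDM2: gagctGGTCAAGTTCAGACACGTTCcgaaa
ZMAT3: tcataAAACAAGTCCAGACATGCCTaggca
The CDKN1A match lies at chr6:36676449-36676468 on the plus strand, upstream of the canonical start with its first base at -2265 (the start is 0), and has 2 mismatches. That of BTG2 is also upstream (chr1:203303642-203303661, plus strand, first base at -1877, 2 mismatches). That of MDM2 lies in an intron (chr12:68808923-68808942, plus strand, first base at 746, 2 mismatches). The ZMAT3 match, at chr3:179070188-179070207 on the minus strand, lies in an intron with its first base at 1602 and has 0 mismatches, which 0.0649% of all windows reached. RRM2B had an intronic match with 1 mismatch, and PLK3, TP53I3, FDXR, SESN1 and TP53INP1 had none in these windows. A match describes the letters only, and binding was not measured.

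Genes were called when the Benjamini-Hochberg adjusted p of the edgeR quasi-likelihood test was under 0.05. By this measure 2 of the 10 genes were lower and 1 was higher in tunicamycin-treated cells, and the other 7 did not pass. Among all genes tested, 34.2% passed, 17.6% upward and 16.6% downward, so the share of the p53 targets was near that of all genes. CDKN1A and FDXR fell and PLK3 rose. They changed by -28.3%, -23.5% and 44.2%. The median log2 fold change of the 10 genes was 0.026, against -0.0033 over all genes tested. The upward and downward shares of all genes depend on the scaling, since 51.4% of the genes called were higher with TMM scaling and 40.8% with library size only.

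**Figure D1:**
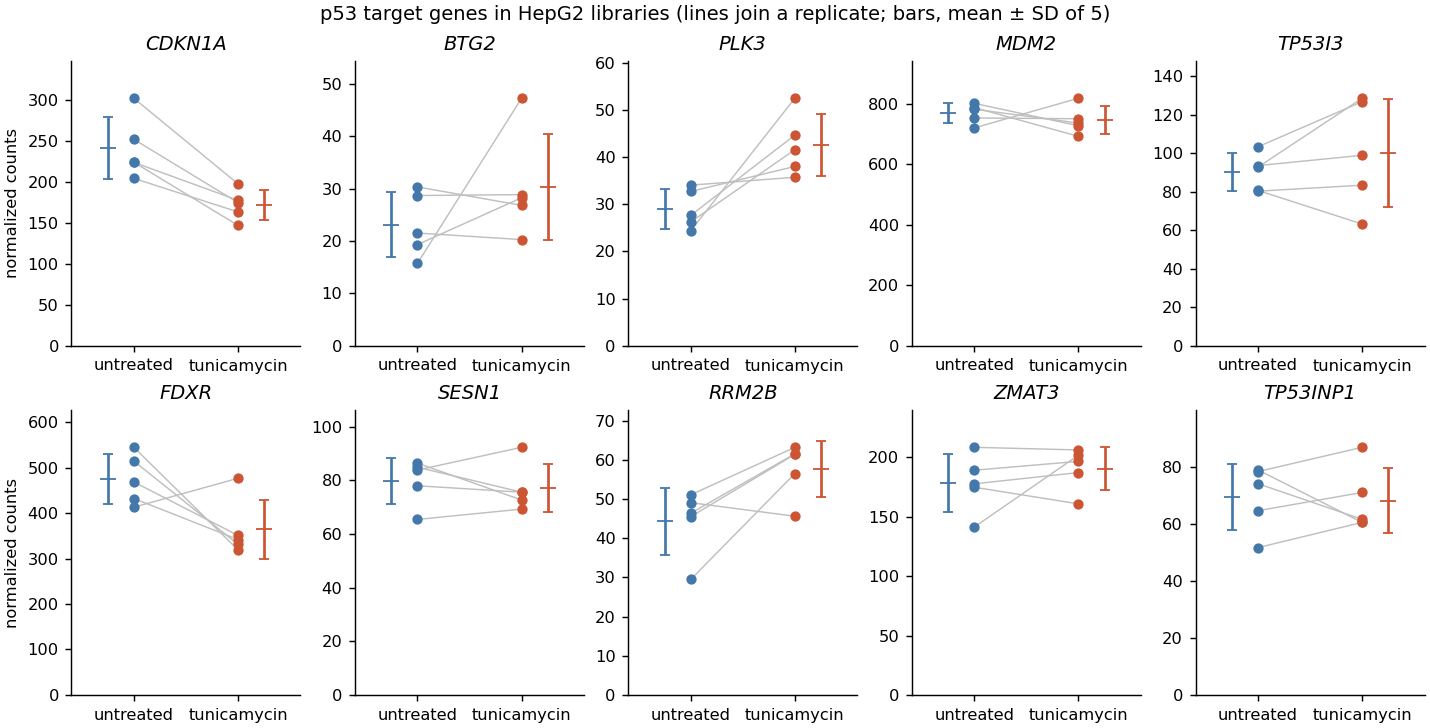
Normalized counts (y axis, from 0) of each of the 10 p53 target genes in the 5 untreated (blue) and 5 tunicamycin (red) libraries, with grey lines joining libraries of the same replicate and bars for the mean ± SD. The groups do not overlap for CDKN1A (204 to 302 against 147 to 198) and PLK3 (24.4 to 34.0 against 35.7 to 52.5), and overlap for the other 8 genes.

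The libraries held 4242538 to 4888292 counts in untreated and 2234682 to 5029864 in tunicamycin-treated cells, the lowest in tunicamycin replicate 5. Mitochondrial transcripts took 22.7% to 25.2% and 18.3% to 28.8% of the counts, with the highest share in tunicamycin replicate 4. In that library 8 of the 10 p53 targets lay below the mean of the tunicamycin libraries (median deviation -0.13 on the log2 scale). In untreated replicate 5, 7 of 10 lay below the untreated mean (median deviation -0.12). The same share over all genes was not counted. The hepatocyte markers ALB, AFP, APOA1, APOB, TTR, SERPINA1 and HNF4A were all present, with a summed level of 58570 to 73940 normalized counts in untreated and 46400 to 52160 in tunicamycin-treated libraries, and 3 of the 7 were called lower. Of 6 markers of blood, connective tissue and vessel cells found in the table, PTPRC had 0 counts in every library, COL1A1, COL3A1 and VWF were too low to be tested, CD68 was called lower and LYZ was not called. The summed level of these 6 markers was 1167 to 1640 normalized counts in untreated and 1237 to 2046 in tunicamycin-treated libraries, nearly all of it LYZ. The part of these shifts in the results was not tested. As a check of the treatment, all 6 listed ER stress genes (HSPA5, DDIT3, HERPUD1, DNAJB9, SDF2L1 and TRIB3) rose without overlap between the groups.

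Levels are given as normalized counts, which are counts scaled to the mean TMM-adjusted library size. Because 3′ libraries count transcripts, the levels of the 10 genes can be set side by side, with the reservation that capture of 3′ ends may differ between genes. In untreated cells MDM2 was the most abundant (769 ± 32.3 normalized counts, SD, n = 5), followed by FDXR (475 ± 55.1), CDKN1A (241 ± 38.0), ZMAT3 (178 ± 24.5), TP53I3 (90.1 ± 9.74), SESN1 (79.7 ± 8.60), TP53INP1 (69.5 ± 11.5), RRM2B (44.3 ± 8.57), PLK3 (29.0 ± 4.18) and BTG2 (23.1 ± 6.21). The ranges over libraries of CDKN1A and ZMAT3 overlapped, as did those of TP53I3, SESN1 and TP53INP1 and those of RRM2B, PLK3 and BTG2, each with the next in order. The other neighbours in this order did not overlap, although TP53INP1 and RRM2B were only just apart (lowest 51.6 and highest 51.1). Among the untreated libraries MDM2 varied least, with a coefficient of variation of 4.20%, and BTG2 most, at 26.8%. With tunicamycin these values were 6.22% and 33.3%.

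Among the genes of the cell cycle, CDKN1A, which encodes p21, had 302, 224, 252, 224 and 204 normalized counts in untreated replicates 1 to 5. In tunicamycin replicates 1 to 5 it had 198, 178, 175, 147 and 163. Every treated library lay below every untreated library, as was the case in either direction for 23.5% of all genes tested. The log2 fold change was -0.48 (standard error 0.12, 95% interval -0.73 to -0.23, adjusted p = 0.00413, edgeR quasi-likelihood), and CDKN1A fell by 28.3%. It was lower in 5 of 5 replicate pairs, with log2 ratios from -0.61 to -0.32. The gene lies at chr6:36676460-36687337 (GRCh38, plus strand, 3 exons), and no exon of another gene overlaps its own.

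PLK3, a polo-like kinase of stress responses, had 32.7, 27.6, 26.2, 34.0 and 24.4 normalized counts in the untreated libraries and 38.0, 44.7, 41.6, 35.7 and 52.5 with tunicamycin. The treated libraries all lay above the untreated ones, but replicates 1 and 4 rose little. The fitted log2 fold change was 0.53 (standard error 0.19, 95% interval 0.14 to 0.92, adjusted p = 0.0351, edgeR quasi-likelihood), and the pairs ranged from 0.068 to 1.09. No library held more than 45 counts of PLK3. The call was lost when any of untreated replicates 2, 3 and 5 or tunicamycin replicates 2, 3 and 5 was left out, with adjusted p-values of 0.0603 to 0.0805, and in 4 other alternatives (adjusted p up to 0.131). Exons of DYNLT4 on the opposite strand overlap those of PLK3 (chr1:44800377-44805990, plus strand), so that its counts may hold those of DYNLT4 unless reads were assigned by strand.

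BTG2, an antiproliferative protein that brings the CCR4-NOT deadenylase to mRNAs, had 21.5, 30.3, 15.7, 28.7 and 19.3 normalized counts in untreated cells and 20.3, 26.8, 47.2, 28.8 and 28.2 with tunicamycin. The groups overlapped, and only tunicamycin replicate 3 lay above all untreated libraries. The log2 fold change was 0.39 with an interval of -0.16 to 0.94 (adjusted p = 0.265, edgeR quasi-likelihood), and 0.15 without tunicamycin replicate 3.

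MDM2, the ubiquitin ligase that limits p53, was measured most precisely of the 10 genes. Its levels were 720.4, 782, 801, 788 and 753 normalized counts in the untreated libraries and 818, 736, 727, 692 and 751 with tunicamycin. The groups overlapped over most of their ranges. Its log2 fold change was -0.045 (standard error 0.078, adjusted p = 0.698, edgeR quasi-likelihood), and its 95% interval, from -0.21 to 0.12, runs from 0.865-fold to 1.09-fold. MDM2 lies at chr12:68808177-68845544 (plus strand, 11 exons), where exons of CPM and of an unnamed gene on the opposite strand and of another unnamed gene on the same strand overlap its own.

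**Figure D2:**
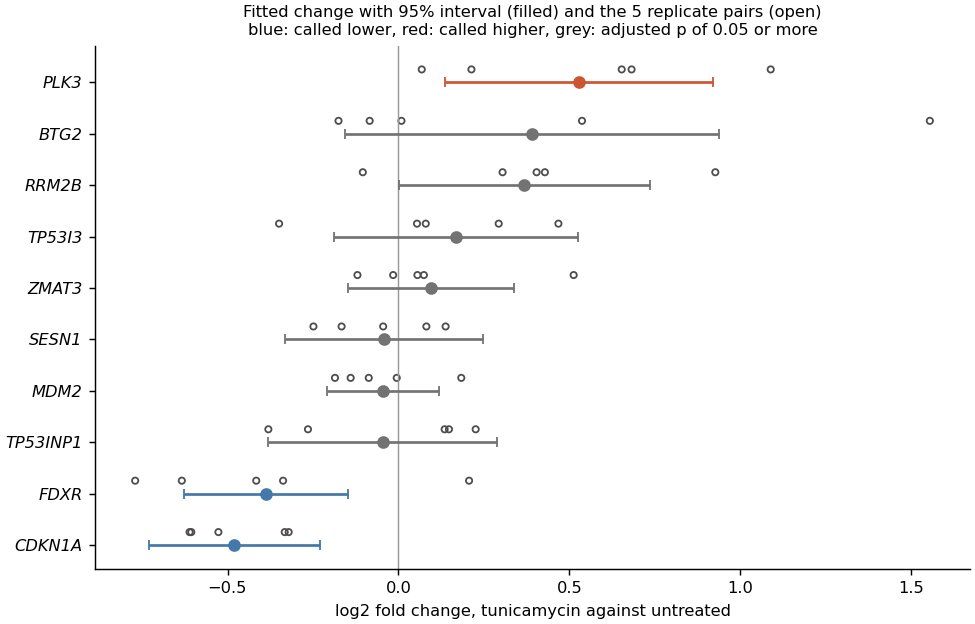
Log2 fold change of tunicamycin against untreated (x axis) for the 10 p53 target genes, with the fitted value and its 95% interval (filled) and the log2 ratio in each of the 5 replicate pairs (open). CDKN1A lies below 0 in all 5 pairs, FDXR in 4 of 5, and PLK3 above 0 in all 5, while the intervals of MDM2, SESN1, ZMAT3, TP53INP1, TP53I3 and BTG2 cross 0.

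Of the genes of redox and metabolism, FDXR fell. It encodes ferredoxin reductase, which passes electrons to the ferredoxins of mitochondria. It had 545, 515, 432, 413 and 469 normalized counts in the untreated libraries and 319, 331, 342, 477 and 351 with tunicamycin. Tunicamycin replicate 4 lay within the untreated range and the other 4 below it. The log2 fold change was -0.39 (standard error 0.11, 95% interval -0.63 to -0.15, adjusted p = 0.0127, edgeR quasi-likelihood). Without replicate 4 of tunicamycin, the library with the highest mitochondrial share, it was -0.50 with an adjusted p of 0.00106. FDXR is at chr17:74862497-74873031 on the minus strand.

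TP53I3, a quinone oxidoreductase-like protein, had 103, 80.3, 92.7, 80.6 and 93.5 normalized counts in untreated cells and 127, 83.4, 128, 63.2 and 98.9 with tunicamycin. The treated libraries lay on both sides of the untreated range, and their coefficient of variation was 28.1% against 10.8%. The fitted log2 fold change was 0.17 (interval -0.19 to 0.53, adjusted p = 0.474, edgeR quasi-likelihood). Exons of FAM228B on the opposite strand overlap those of TP53I3.

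SESN1, a sestrin that restrains the growth kinase mTORC1, had 65.4, 83.8, 84.9, 77.9 and 86.4 normalized counts in untreated cells and 69.3, 92.3, 75.6, 75.6 and 72.6 with tunicamycin. The ranges overlapped nearly throughout. Its log2 fold change was -0.043 with an interval of -0.33 to 0.25 (adjusted p = 0.838, edgeR quasi-likelihood). Exons of an unnamed gene on the opposite strand overlap those of SESN1.

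RRM2B, the p53-inducible small subunit of ribonucleotide reductase, had 49.1, 46.4, 45.5, 51.1 and 29.5 normalized counts in the untreated libraries and 45.6, 61.5, 61.4, 63.2 and 56.5 with tunicamycin. It was higher in 4 of 5 pairs, and untreated replicate 5 was the lowest of all. Its log2 fold change of 0.37 (interval 0.0015 to 0.73) had an unadjusted p of 0.0492 and an adjusted p of 0.114 (edgeR quasi-likelihood), and so did not pass. Without untreated replicate 5 it was 0.26.

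ZMAT3, a zinc finger protein that binds RNA, had 208, 189, 178, 175 and 141 normalized counts in untreated cells and 206, 196, 187, 161 and 202 with tunicamycin. Its log2 fold change was 0.095 (interval -0.15 to 0.34, adjusted p = 0.565, edgeR quasi-likelihood). TP53INP1, which takes part in autophagy and cell death, had 64.6, 74.0, 51.6, 78.8 and 78.3 normalized counts in untreated cells and 70.9, 61.5, 60.5, 60.4 and 86.8 with tunicamycin. The log2 fold change was -0.047 (interval -0.38 to 0.29, adjusted p = 0.849, edgeR quasi-likelihood). Neither gene separated the groups, and exons of NDUFAF6 on the opposite strand overlap those of TP53INP1.

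Called genes were found with and without a match in the window searched, and a gene without one may have a response element elsewhere or of another form. Of the 5 genes with a match in the window, CDKN1A was lower and BTG2, MDM2, RRM2B and ZMAT3 were not called. Of the 5 without, FDXR was lower, PLK3 higher and 3 not called. Over all tested genes with a window, 32.8% of 408 genes with a match were called, 72 higher and 62 lower, against 37% of 10824 genes without one.

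A second list held 45 other established p53 targets, of which 41 could be tested. Of these, 9 were higher and 7 lower (39% called, against 34.2% of all genes), and the median log2 fold change was -0.056. With library size only, 9 were higher and 11 lower, and with the replicate block 9 and 10. CD82 and IGFBP3 had 0 counts in every library, and these and TRIM22 and TP53AIP1 were too low to be tested. Matches to the response element were found in 34.1% of 44 windows.

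The 9 genes that rose did so in different roles. Among 5 genes of growth arrest, GADD45A, CCNG1 and PLK2 rose and E2F7, a repressor of the E2F family, fell. Of 2 genes of feedback on p53, TRIAP1 fell and PPM1D, a phosphatase that acts on p53, was not called. Of 16 genes of cell death, TNFRSF10B and TNFRSF10D, receptors for the ligand TRAIL, rose, TNFRSF10C and PIDD fell, and 12 were not called, among them BAX, BBC3, PMAIP1 and FAS. Of 3 genes of DNA repair, DDB2 fell and XPC and POLH were not called. Of 7 genes of redox and metabolism, C12orf5 (TIGAR, which diverts glucose from glycolysis) rose and ALDH4A1 fell. GDF15, LIF and ATF3 rose among 8 secreted, surface and other genes, and RPS27L fell.

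TNFRSF10B rose from 297 ± 77.4 to 575 ± 73.7 normalized counts (SD, n = 5 libraries each), without overlap, and C12orf5 from 23.1 ± 14.3 to 56.9 ± 14.8, with overlap. DDB2, which recognises ultraviolet damage in DNA, fell most in this list, from 138 ± 18.2 to 41.9 ± 10.6. Its log2 fold change was -1.72 (standard error 0.17, adjusted p = 2.25e-07, edgeR quasi-likelihood), and each treated library (29.8 to 53.2) lay below each untreated one (128 to 171). E2F7 fell from 27.8 ± 7.23 to 8.78 ± 4.19 and PIDD from 56.8 ± 13.6 to 24.2 ± 6.12, both without overlap. TNFRSF10C fell by 1.00 on the log2 scale (standard error 0.32), with overlap. It lost its call without untreated replicate 1 or 5 or tunicamycin replicate 3 or 4, with adjusted p-values of 0.0517 to 0.0635, and with DESeq2 plus the replicate block and after thinning (up to 0.0758).

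LIF, a cytokine, was almost absent from untreated cells, where the 5 libraries held 7 counts in all, against 86 counts with tunicamycin. Scaled for library size this is a ratio of 15.2, with an exact 95% binomial interval of 7.06 to 38.9 that covers counting error only. Tunicamycin replicate 1 had 1.69 normalized counts, within the untreated range of 0 to 2.69, and the other 4 had 22.8 to 28.3. The untreated libraries alone would not have brought LIF through the filter on low counts, so that its place among the genes called higher is a description. With default filter minimums, a single group in the filter or thinning it was not tested.

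**Figure D3:**
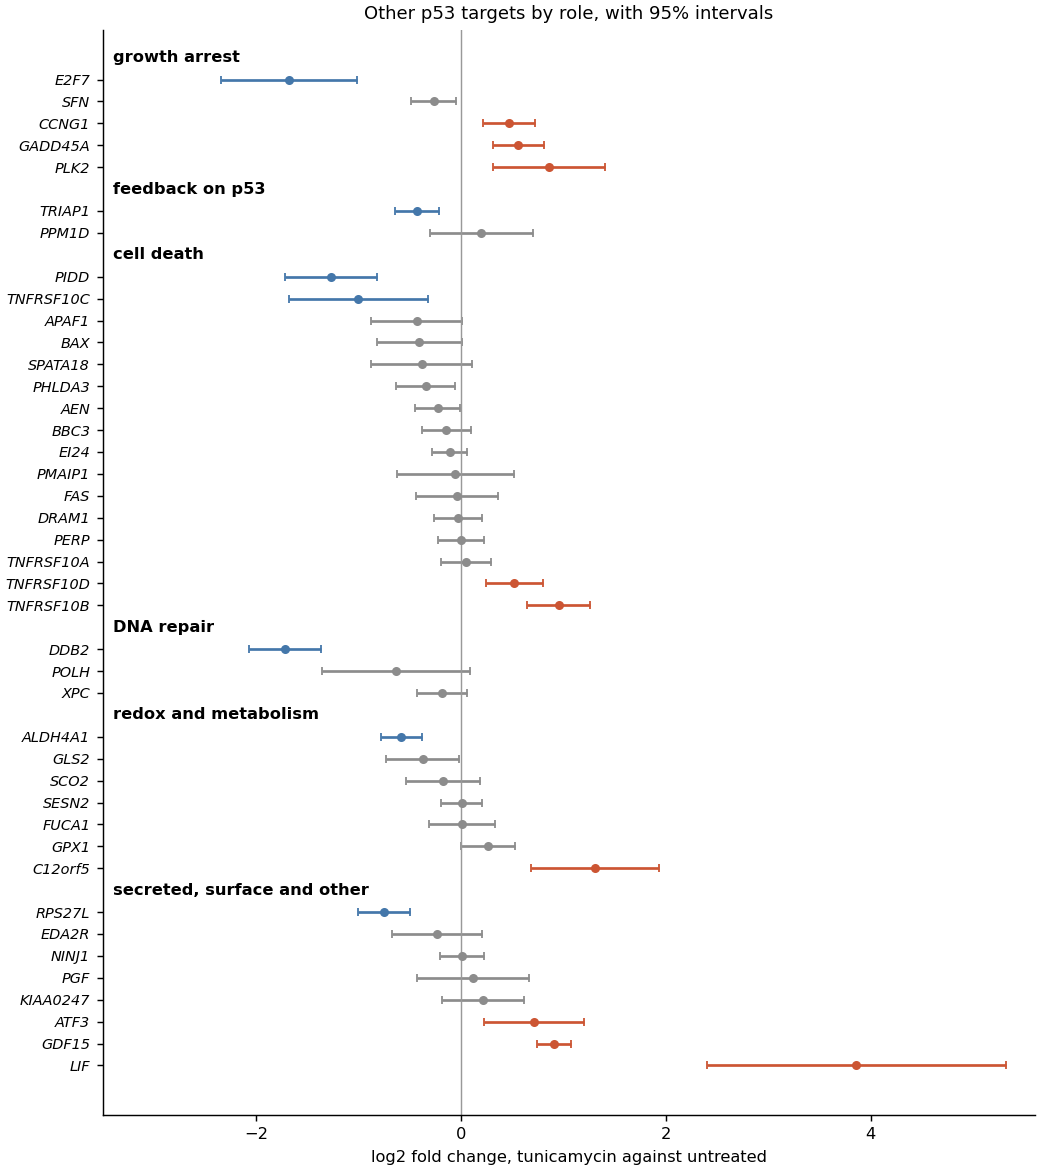
Log2 fold change (x axis) with 95% intervals for the 41 other p53 targets tested, grouped by role, in red where called higher, blue where called lower and grey where not called. In the cell death group 12 of 16 genes were not called. The values of all 16 ran from -1.27 (PIDD) to 0.95 (TNFRSF10B), both called. DDB2 and LIF mark the ends of the range of the whole list at -1.72 and 3.86.

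Some p53 targets are also known to be induced by ATF4 or CHOP, transcription factors of the integrated stress response that ER stress sets off. Of 8 such genes, 4 rose (GDF15, TNFRSF10B, GADD45A and ATF3), 0 fell, and SESN2, PMAIP1, BBC3 and DDIT4 were not called (50% called, against 34.2% of all genes). All 4 that rose are also among the other p53 targets counted above. The median log2 fold change of the 8 genes was 0.32. GDF15, a stress-induced secreted factor, rose by 0.91 on the log2 scale, to 5817 ± 255 normalized counts from 3094 ± 211 (SD, n = 5). GADD45A, which acts in growth arrest and DNA repair, had 128 to 185 normalized counts without and 187 to 247 with tunicamycin. ATF3 rose from 21.5 ± 7.43 to 35.0 ± 3.67, but lost its call without untreated replicate 1, 2 or 4 or tunicamycin replicate 2 (adjusted p 0.0508 to 0.0633), and in 2 other alternatives, DESeq2 plus the replicate block and thinning (adjusted p up to 0.0733).

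Genes that control p53 were examined next. CDKN2A, whose locus encodes the MDM2 inhibitor ARF and the kinase inhibitor p16 from overlapping transcripts that gene counts do not separate, rose from 55.8 ± 16.8 to 125 ± 20.6 normalized counts (SD, n = 5 libraries each). TP73, a relative of p53, fell from 14.7 ± 4.44 to 5.10 ± 2.37, and CHEK1, a checkpoint kinase, from 123 ± 21.7 to 72.4 ± 7.67. The TP73 levels were low and the groups overlapped (7.13 to 18.9 against 1.69 to 8.07). With default filter minimums or a single group in the filter TP73 was not tested. CHEK1 exons are overlapped by those of STT3A on the same strand and of an unnamed gene on the opposite strand. TP73 exons are overlapped by those of TP73-AS1 on the opposite strand. MDM4, the partner of MDM2, had 216 ± 19.7 and 235 ± 22.5 normalized counts, with a log2 fold change of 0.13 (interval -0.087 to 0.34, adjusted p = 0.361, edgeR quasi-likelihood). The ribosomal proteins RPL5 and RPL11, which can bind MDM2, had log2 fold changes of 0.33 and 0.21 and were called higher. With library size only neither was called, and RPL11 also lost its call with no filter and in 6 of the 10 fits without a library (untreated replicates 2, 4 and 5 and tunicamycin replicates 1, 3 and 5, adjusted p up to 0.0832). Many processed copies of both genes exist in the genome, so their counts are uncertain. In all, 3 of 20 tested control genes were higher and 2 lower (25% called, against 34.2% of all genes). With the replicate block, 5 were higher and 3 lower. In the fit without the block, ATM, ATR, CHEK2, HIPK2, USP7, EP300 and CREBBP were among those not called.

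Of 23 genes that p53 is known to repress through p21, 19 were lower and 1 higher with tunicamycin (87% called, against 34.2% of all genes), with a median log2 fold change of -0.73. CDKN1A mRNA was also lower. The p21 protein was not measured in these libraries, and a link of these changes to p21 was not tested. The list was chosen with earlier results of these data known. In the same libraries the authors had reported processes of cell cycle and DNA replication as the most downregulated. MCM5, E2F2, MKI67 and E2F1 fell most. MCM5, a subunit of the replicative helicase, had 446 ± 63.8 normalized counts without and 113 ± 23.2 with tunicamycin (SD, n = 5). E2F2 and E2F1, transcription factors of S phase entry, fell by 1.81 and 1.26 on the log2 scale, and MKI67, the proliferation marker Ki-67, went from 2562 ± 179 to 928 ± 145. CKS1B, a cofactor of cyclin-dependent kinases, was the exception and rose from 884 ± 45.5 to 1189 ± 143. The count table has 2 rows for CKS1B, and these values are from the row with more counts. CCNB1, CDC20 and PLK4 were not called.

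Of 13 tested paralogs of the 10 genes, 4 were higher and 2 lower (46.2% called, against 34.2% of all genes). The difference between a gene and its paralog was not tested. TP53INP2, like TP53INP1 a protein of autophagy, rose from 24.9 ± 13.7 to 73.0 ± 26.6 normalized counts (log2 fold change 1.55, adjusted p = 0.0012, edgeR quasi-likelihood), while TP53INP1 was not called. RRM2, the S-phase counterpart of RRM2B, fell from 845 ± 43.8 to 406 ± 41.0. CRYZ, a quinone oxidoreductase related to TP53I3, rose from 243 ± 49.8 to 389 ± 67.1. BTG3 rose from 37.3 ± 6.18 to 62.0 ± 11.6, and BTG1, TOB1 and TOB2 were not called (0.24, 0.032 and 0.14 on the log2 scale). Of the polo-like kinases, PLK2 rose (0.86) and PLK1 fell (-0.41), and PLK4 was not called (-0.018). PLK2 lost its call without tunicamycin replicate 2, with an adjusted p of 0.0541, and with DESeq2 plus the replicate block and after thinning to the smallest library (adjusted p up to 0.0671). SESN2, with 529 ± 50.3 and 529 ± 60.6 normalized counts, and CDKN1B, the inhibitor p27, with 190 ± 26.0 and 178 ± 16.1, were not called. CDKN1C and SESN3 had at most 1 and 2 counts in any library and were not tested.

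**Figure D4:**
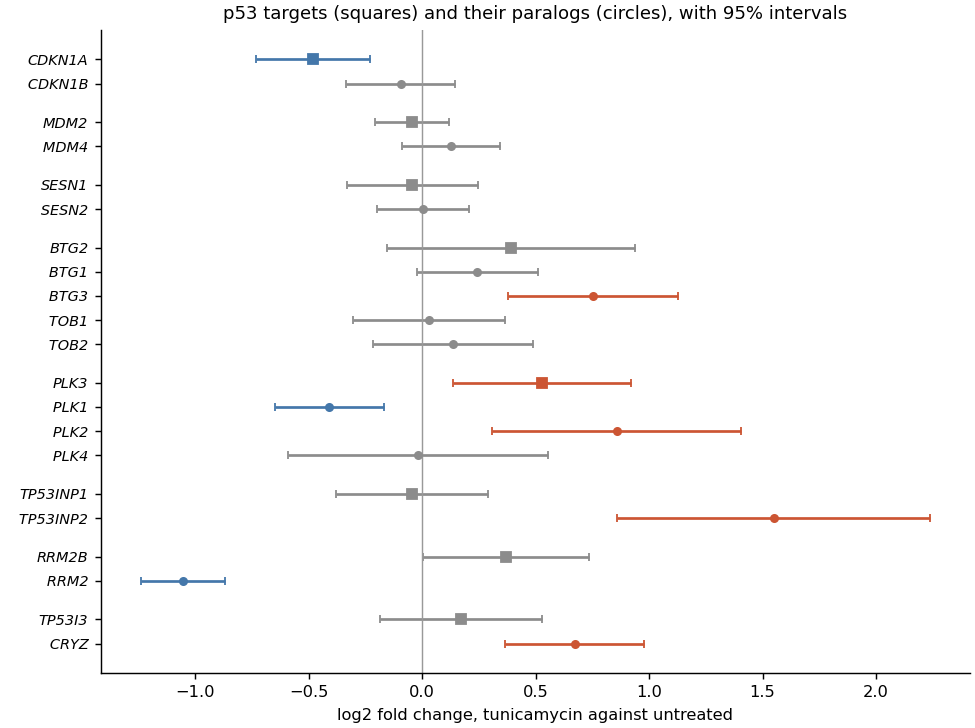
Log2 fold change (x axis) with 95% intervals for p53 target genes (squares) and their tested paralogs (circles below each), in red where called higher, blue where called lower and grey where not called. TP53INP2 (1.55) lies above TP53INP1 (-0.047), and RRM2 (-1.06) below RRM2B (0.37).

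Over the 5 replicate pairs, the genes whose log2 ratios lay nearest to those of CDKN1A, among 9707 genes with at least 20 normalized counts, were ASAH1, LEPREL4 and MAPK14, with root mean square differences of 0.0468, 0.0696 and 0.0751. ASAH1, the acid ceramidase, fell from 405 ± 13.5 to 290.1 ± 20.7 normalized counts, LEPREL4 from 343 ± 41.6 to 246 ± 18.5 and MAPK14, the kinase p38 alpha, from 178 ± 9.95 to 129 ± 17.1. Among those nearest to MDM2 were XRCC5 and NSRP1, with differences of 0.0207 and 0.0388. XRCC5, the Ku80 subunit of DNA end joining, had 1830 ± 146 normalized counts in untreated and 1772 ± 68.4 in tunicamycin-treated libraries, and neither was called. These neighbours describe likeness over 5 pairs only.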

How the data were processed

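RNA from 5 untreated and 5 tunicamycin-treated HepG2 cultures was sequenced with 3′ QuantSeq libraries. The authors processed the reads with the nf-core RNA-Seq pipeline on hg19 with Ensembl transcript definitions and deposited raw counts per gene. The aligner, counter and strand setting of those defaults are not named in the sources used here. Columns were matched to libraries by name. Genes were filtered with filterByExpr (minimum count 2, minimum total 10), scaled by TMM and tested by edgeR quasi-likelihood (version 4.0.16 in R 4.3.3) with condition as the only term and Benjamini-Hochberg adjustment at 0.05, after the test had been tried on simulated data. Standard errors are the absolute log2 fold change divided by the square root of F. Normalized counts are counts scaled to the mean TMM-scaled library size, and log2 ratios within pairs used a pseudocount of 0.5. The series text gives separate days for the replicate experiments, so replicate numbers pair the libraries. The correlations of paired deviations over 9707 genes were 0.36, 0.0197, 0.0764, 0.162 and 0.137 for replicates 1 to 5. For untreated replicates 2 and 5, a tunicamycin library of another replicate number gave a higher correlation. Totals of 2234682 to 5029864 counts limit genes with few counts. P-values measure the spread between these cultures of a single cell line.

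The members and all gene lists were chosen with earlier results of these data known. Named genes are the 10 members, MDM4, all paralogs, up to 4 called genes with the largest change in each direction per list, and the nearest genes; further genes of the lists are named by their calls, after their values were seen. Some genes of the lists and of the naming rule are not reported here and are left out of the lists' counts. Alternatives were DESeq2 1.42.0, other scalings and filters, the replicate block, thinning, removal of mitochondrial genes and leaving out each library. Positions and sequences were looked up by Ensembl identifier in GENCODE on GRCh38; hg19 coordinates were not used here.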

Additional observations from a re-analysis of the deposited data

Results flagged for a closer look

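With 5 libraries a condition, 1 library stood well apart from the rest in 11 of the 103 sets of values examined (gene levels, totals and mitochondrial shares), and chance alone would give about 5.15. Among the p53 target genes these were FDXR in tunicamycin replicate 4, at 477 normalized counts against 319 to 351 in the others, SESN1 in tunicamycin replicate 2 (92.3 against 69.3 to 75.6) and RRM2B in untreated replicate 5 (29.5 against 45.5 to 51.1). Among the other genes they were TOB1 in tunicamycin replicate 5 (147 against 79.7 to 92.9), CRYZ in tunicamycin replicate 1 (270.3 against 408 to 430), LIF in tunicamycin replicate 1 (1.69 against 22.8 to 28.3), DDB2 in untreated replicate 5 (171 against 128 to 133), CDKN2A in tunicamycin replicate 5 (161 against 112 to 122) and MCM5 in untreated replicate 1 (559 against 410.3 to 425). CDKN1C in tunicamycin replicate 3 (0.945) and SESN3 in tunicamycin replicate 4 (1.37) stood out from 0 in the other libraries by no more than 1 count. The library totals and mitochondrial shares were not among them.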

How the results depend on the processing

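Few counts limit PLK3, BTG2 and RRM2B most. The number of p53 target genes called lower was 2 in every alternative. The number called higher was 0 when libraries were scaled by size only or genes left unfiltered. It was also 0 with DESeq2 plus the replicate block and after thinning to the smallest library. Over the fits without a library it was 0 to 1. With the replicate block in edgeR it was 1, where PLK3 had an adjusted p of 0.0498 (edgeR quasi-likelihood). The block changed no call among the 48 tested genes that the naming rule above picked. It did change calls of other listed genes, and 10 of the other p53 targets were then lower, against 7 without it. Of the other p53 targets, 5 were called higher after thinning and 11 lower with library size only. Of the p53 control genes, 1 was called higher with library size only and 5 with the replicate block, and 1 was called lower with default filter minimums and with a single group in the filter. TP73 did not pass either of these filters and so was not tested there. Signs turned for genes near 0 that were not called in any of these fits. SESN2 was at -0.076 with library size only, -0.00145 with default minimums and -0.0306 after thinning, TOB1 at -0.047 with library size only, and PLK4 at 0.042 with the replicate block, 0.047 when DESeq2 was used with it and 0.13 after thinning. Over the fits without a library, the log2 fold change ranged from -0.13 to 0.013 for TP53INP1, -0.048 to 0.058 for SESN2, -0.12 to 0.091 for TOB1, -0.20 to 0.12 for PLK4 and -0.18 to 0.0085 for NSRP1.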
